A study of Saccharomyces cerevisiae with 6 samples.

Results

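The COS genes of budding yeast, Saccharomyces cerevisiae, form a family of closely similar genes that lie next to the telomeres of many chromosomes. They were read here by 9 probe sets, every set whose annotated symbol is COS followed by digits, out of 5498 probe sets of budding yeast genes on the array. Of the 9, 8 belong to genes of the subtelomeric family (COS2, COS4, COS6, COS7, COS8, COS9, COS10 and COS12). The other one reads COS111, which shares only the name: it is a gene for resistance to the antifungal ciclopirox and is not related to the family. A further 3 family genes of the RefSeq R64 table, COS1, COS3 and COS5, had no probe set annotated to them.

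Cells whose histone H2B carries K111A, alanine in place of lysine (strain WY317), were compared with cells with wild-type H2B (strain PY014), with 3 single-channel arrays of each. The medium was YPD, which is rich and holds glucose, both strains were harvested in mid-log phase, and biotin-labelled cRNA was made from total RNA. The labels name 1 strain for the substitution, give no other alleles, and present the wild-type arrays as the comparison for a second H2B substitution, R102A, as well. They number the samples of a strain but do not say whether these were separate cultures, so the errors below measure the spread between samples, which may be partly technical. RNA of a whole culture was read, so more mRNA in every cell and more cells with the mRNA cannot be told apart.

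Cos proteins are membrane proteins of endosomes and the vacuole. They are known to help carry ubiquitinated membrane proteins into the multivesicular body, the compartment from which surface proteins reach the vacuole for breakdown. The DNA around telomeres is subject to silencing, in which the deacetylase Sir2, which uses NAD, and the histone-binding proteins Sir3 and Sir4 lower the expression of nearby genes. COS genes are among the genes whose expression has been tied to Sir2 and NAD.

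The family was chosen by the strain difference on these same arrays: COS4, COS6, COS7 and COS8 had been selected on their higher values in the mutant, and the symbol rule then added the other sets. The COS values are therefore a description with no test, and no excess of high members can be read from them. Intensities are on the authors' linear scale, and log2 differences are of log2(intensity + 32), mutant minus wild type, a scale that understates the change of dim sets. Background was read from probe sets of fission yeast on the same array, whose 99th percentile was 3.7.

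In the mutant, 4 of the 9 sets stood above wild type with no overlap between the arrays of the strains, by 1.24-fold to 1.41-fold in mean intensity. The other 5 overlapped, and their log2 differences lay between -0.09 and -0.01. None stood below wild type without overlap. Over all 5498 sets, 18.2% were higher in the mutant without overlap and 18.5% lower. The median log2 difference was 0.14 over the 8 family sets, -0.0087 over all 9, COS111 included, and -0.00045 over all sets on the array. Both COS medians hold the 4 sets chosen for their higher values, so no excess can be read from them.

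COS6 showed the largest difference of the family. Its intensity was 262.9, 261.4 and 271 on the mutant arrays, against 200, 162.7 and 200.7 on the wild-type arrays. The lowest mutant array lay 60.7 above the highest wild-type array, and wild-type array 2 was the low one of its strain. The means were 265 ± 5.16 in the mutant and 188 ± 21.7 in wild type (SD, n = 3 each), a ratio of 1.41 and a log2 difference of 0.44 ± 0.09 (standard error over arrays). Only 3 of the 5498 sets had a larger rise on the log2 scale, which places COS6 at rank 4.

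COS7 was the most variable of the 4 within the mutant. It read 181.6, 158.1 and 191 on the mutant arrays, against 144.8, 135 and 121.1 on the wild-type arrays. The gap between the strains was only 13.3, between mutant array 2 and wild-type array 1. Its means were 177 ± 16.9 in the mutant and 134 ± 11.9 in wild type (SD, n = 3 each), a ratio of 1.32 and a log2 difference of 0.33 ± 0.09, rank 32.

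COS8 varied little in the mutant and more in wild type. It read 244.6, 237.1 and 239.8 on the mutant arrays, against 188.2, 203.4 and 172 on the wild-type arrays, with a gap of 33.7 between the strains. Its means were 240.5 ± 3.80 in the mutant and 188 ± 15.7 in wild type (SD, n = 3 each), a ratio of 1.28 and a log2 difference of 0.31 ± 0.06, rank 45.

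COS4 was the brightest of the 4 sets, which says nothing of its mRNA level relative to the others, since probe sets differ in how strongly they bind. It read 772.2, 753.3 and 753.3 on the mutant arrays, against 591.2, 640.8 and 611.1 on the wild-type arrays, a gap of 112.5. Its means were 759.6 ± 10.9 in the mutant and 614 ± 25.0 in wild type (SD, n = 3 each), a ratio of 1.24 and a log2 difference of 0.29 ± 0.03, the smallest standard error of the 4. It had rank 53 on the log2 scale, where fewer than 1% of all sets rose by more. That scale understates the change of dim sets, and the share was larger by ratio of mean intensities. By that ratio, 1.71% of all sets stood at 1.3 or more, above the 1.24 of COS4.

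**Figure D1:**
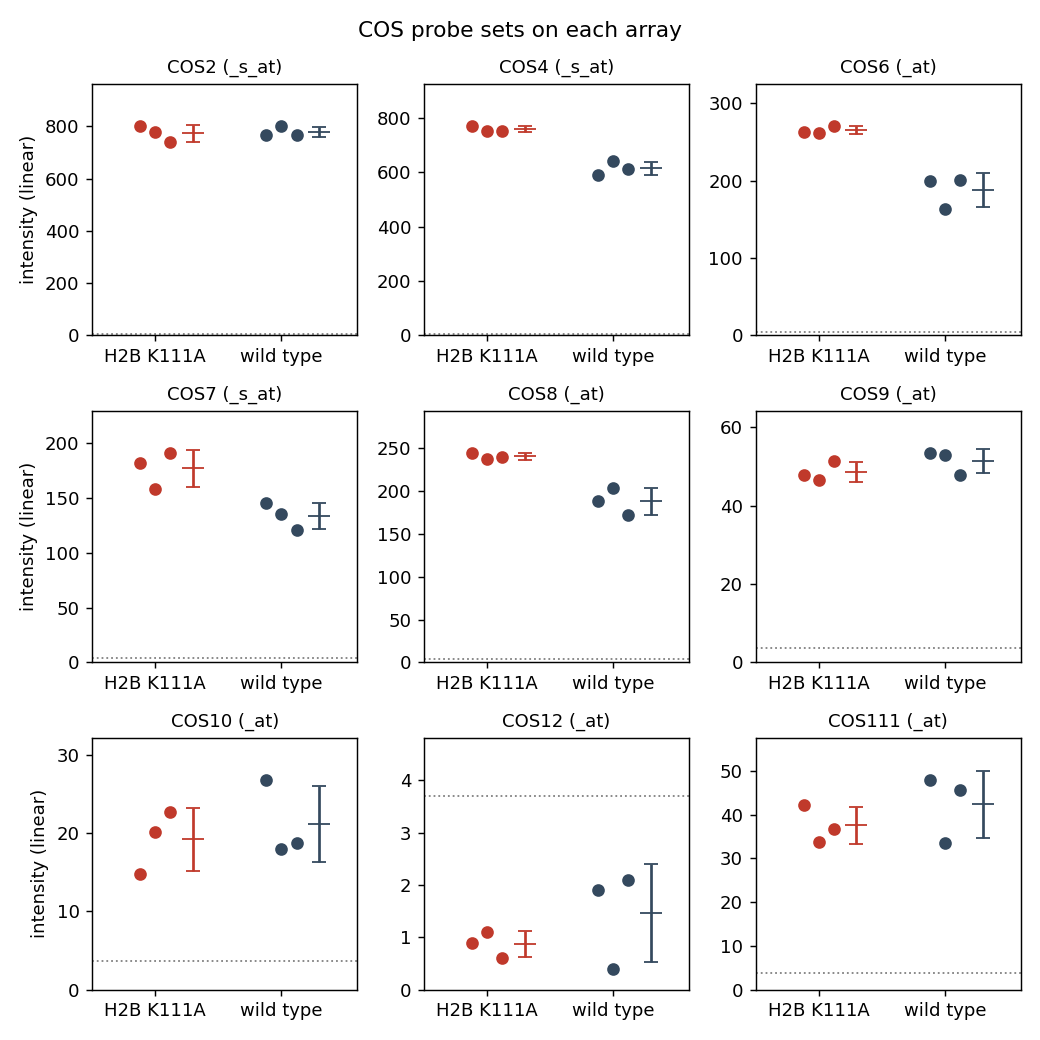
Linear intensity of each COS probe set on each array, with H2B K111A (red) left of wild type (grey-blue). Points are arrays 1 to 3 from left to right within a strain, the mark beside them is the mean with its SD, the dotted line is the background of 3.7, and each panel has its own axis from 0; the suffix of the set stands in the title. The strains are apart for COS4, COS6, COS7 and COS8 and overlap for the other 5 sets, and COS12 lies under the background.

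COS2, read by a bright set, was alike in mean in the strains. It read 802.9, 777.1 and 739.7 on the mutant arrays, against 765.5, 801.3 and 766.7 on the wild-type arrays. The mutant arrays held both the highest and the lowest of the 6 values. The means were 773 ± 31.8 in the mutant and 778 ± 20.3 in wild type (SD, n = 3 each), with a log2 difference of -0.0087 ± 0.04.

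COS9 and COS10 were dimmer and also overlapped. COS9 read 47.7, 46.6 and 51.5 on the mutant arrays, against 53.5, 52.8 and 47.9 on the wild-type arrays, a log2 difference of -0.05 ± 0.04. COS10 read 14.8, 20.2 and 22.7 on the mutant arrays, against 26.8, 18 and 18.7 on the wild-type arrays, a log2 difference of -0.05 ± 0.10. For COS10 the spread within a strain was over 20% of the mean, 21.0% in the mutant and 23.1% in wild type, so a difference of the size seen for COS4, 23.6%, would have been about as large as this spread.

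COS12 was not above background on any array. It read 0.9, 1.1 and 0.6 on the mutant arrays, against 1.9, 0.4 and 2.1 on the wild-type arrays, all under 3.7. Such readings fit a gene with no mRNA as well as a probe set that does not work, and no fold is given.

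COS111 read 42.1, 33.7 and 36.8 on the mutant arrays, against 47.9, 33.5 and 45.5 on the wild-type arrays. The lowest value, on wild-type array 2, lay beside the lowest mutant value. Its log2 difference was -0.09 ± 0.10.

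**Figure D2:**
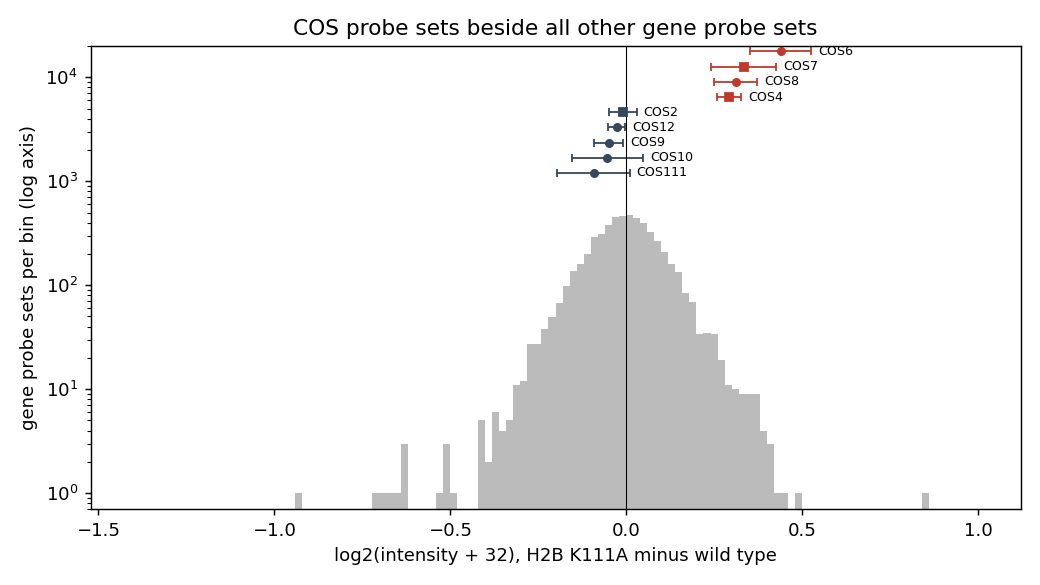
Log2 differences of the 9 COS probe sets (points with standard errors over arrays; circles for plain sets, squares for sets of the shared-sequence kind; red where the arrays of the strains do not overlap) above the distribution of all other gene probe sets (grey bars, counts on a log axis). The height of a point has no meaning. COS6, COS7, COS8 and COS4 lie at 0.29 to 0.44 in the right tail, and the other 5 lie between -0.09 and -0.01.

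Family members resemble one another in sequence, so a set may read more than its own gene. The array marks 3 of the 9 sets, COS2, COS4 and COS7, with the suffix _s_at, used where the probes match several genes or transcripts, and none with _x_at, used where some probes may bind unrelated sequence. The 4 higher sets were 2 of this kind (COS4 and COS7) and 2 plain ones (COS6 and COS8), and the shared-sequence set of COS2 overlapped between the strains. The sources used here do not name the genes that each _s_at set also reads, so the COS4 and COS7 signals may hold RNA of COS1, COS3, COS5 or another copy.

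Across the whole array the mutant stood above wild type without overlap for 18.2% of 5370 plain sets, 16.5% of 103 _s_at sets and 20% of 25 _x_at sets. Rises past limma's threshold, described further on, made up 6.89%, 12.6% and 16% of these kinds. A difference between the kinds was not tested.

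The places of the members along the chromosomes are those of the genes to which the sets are annotated. Counted in protein-coding genes from the nearest chromosome end in the RefSeq R64 gene order, COS7 (YDL248W) stood at place 1, COS6 (YGR295C) at 2, COS8 (YHL048W) at 4 and COS4 (YFL062W) at 6. Of the family members that overlapped, COS2 (YBR302C) and COS12 (YGL263W) stood at place 1, COS10 (YNR075W) at 4 and COS9 (YKL219W) at 5. COS6 and COS12 lie at opposite ends of chromosome VII. COS12 was under background, and the _s_at sets of COS2, COS4 and COS7 may read other copies. The rest are too few to read an order of higher and overlapping members by place. COS111 (YBR203W) stood at place 100, far from an end.

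Array-to-array variation differed among the 4 higher sets. Over the 6 arrays their 6 pairs correlated at r = 0.76 to 0.95 on the log2 scale, values that carry the strain difference for which the sets were chosen. After the strain means were subtracted, 3 pairs correlated above 0 and 3 below, from -0.86 (COS4 with COS6) to 0.57 (COS4 with COS8). All these values come from the same 6 arrays. The lowest wild-type reading was on array 1 for COS4, array 2 for COS6 and array 3 for COS7 and COS8, so no single wild-type array was the low one for all 4. Relative to the mean, COS6 varied by 1.95% in the mutant against 11.6% in wild type, COS8 by 1.58% against 8.36% and COS4 by 1.44% against 4.06%. COS7 went the other way, with 9.58% in the mutant against 8.91% in wild type. Each value rests on 3 arrays, and the same comparison over all sets was not made.

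Leaving out any 1 array kept the 4 differences above 0, which was fixed in advance because the arrays of the strains do not overlap for these sets. Across those repeats the log2 difference ran from 0.35 to 0.48 for COS6, from 0.28 to 0.40 for COS7, from 0.26 to 0.36 for COS8 and from 0.27 to 0.32 for COS4. The differences of COS2 and COS10 turned above 0 without some arrays, to at most 0.02 for each.

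**Figure D3:**
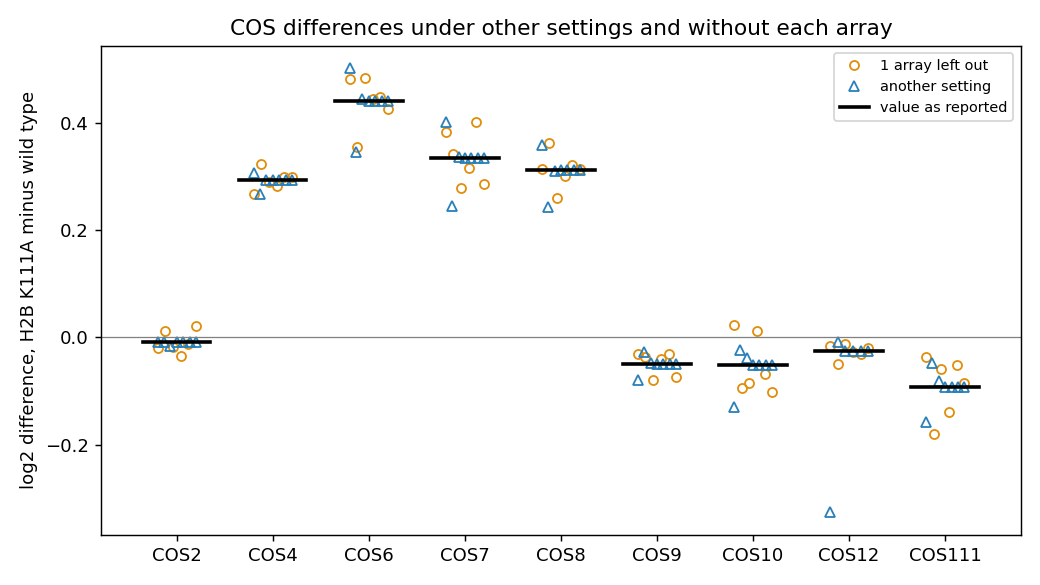
Log2 difference of each COS probe set, mutant minus wild type, as reported (black line), without each array in turn (orange circles) and under the other settings (blue triangles). COS4, COS6, COS7 and COS8 stay above 0 throughout, which arrays without overlap fix in advance except under quantile normalization. The low triangle of COS12 is the value of -0.33 with a pseudocount of 1, from readings under background.

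Many sets followed a pattern like that of the 4 over so few arrays. For each of them 101 to 109 sets correlated at r over 0.95 over the 6 arrays, with the strain difference left in. The nearest to COS6 were PTM1 (r = 0.999), SCO2 (0.996) and VMA11 (0.993), a subunit of the vacuolar proton pump. The nearest to COS7 were TMT1, a methyltransferase (0.995), and the transcription factors MET28 (0.993) and STB5 (0.992). The nearest to COS8 were POT1, a thiolase of fatty acid oxidation (0.998), YKL091C (0.994) and UGA1, GABA transaminase (0.993). Those to COS4 were PRD1, a proteinase (0.994), PYC2, pyruvate carboxylase (0.994), and ARC1, a cofactor of tRNA synthetases (0.991). No COS set was among the 3 nearest of another.

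The sets that overlapped had fewer near matches, from 5 sets over 0.95 for COS111 to 12 for COS9. The nearest were ILV6 (r = 0.983), YDJ1 (0.977) and MMF1 (0.977) for COS2, PEP8 (0.987), RCR2 (0.976) and TCP1 (0.972) for COS9, SPT2 (0.994), PRI1 (0.990) and YAE1 (0.970) for COS10, and RML2 (0.988), PAC1 (0.976) and NAM9 (0.969) for COS111. All are descriptions over the same 6 arrays.

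Genes beside the COS genes, up to 5 protein-coding genes on each side, were tested in the fit across all sets. limma, with Benjamini-Hochberg adjustment over the 5498 sets, called 14.6% of them at an adjusted p under 0.05, 7.04% higher and 7.57% lower in the mutant. Without mutant array 3 it called only 90 higher and 125 lower, against 387 and 416 with all arrays. Of the 66 neighbouring genes 47 had a probe set, 50 sets in all. Of these sets 37 lay above background on all arrays, and 14 were of the _s_at or _x_at kind. Among these 50 sets 4 rose and 3 fell, 14% together, a share near that over all sets, with a median log2 difference of -0.0037. Without 1 array the counts ran from 2 to 4 risen and 1 to 2 fallen.

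Around the 4 higher COS genes, 2 of 21 sets rose and 2 fell, with a median log2 difference of -0.0038. Around the other 5, 2 of 29 rose and 1 fell, with a median of -0.0015. A difference between these counts was not tested.

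DDI3, a cyanamide hydratase gene with a near-identical copy, is the next gene inward of COS4. Its _s_at set read 75, 60.4 and 70.5 on the mutant arrays, against 54.6, 52 and 52.7 on the wild-type arrays, and rose (log2 difference 0.24 ± 0.05, limma adjusted p = 0.0226). It no longer passed when wild-type array 2 (adjusted p = 0.0563), mutant array 1 (0.0651) or mutant array 3 (0.087) was left out.

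The next genes inward of DDI3 moved the other way. SNO3, of vitamin B6 metabolism, read 66.4, 67.1 and 63.2 on the mutant arrays, against 91.2, 99.9 and 103.6 on the wild-type arrays (log2 difference -0.42 ± 0.04, limma adjusted p = 0.00173). SNZ3, its partner gene, was also lower (-0.24 ± 0.05, limma adjusted p = 0.0238), a call lost without wild-type array 1 (0.0631) or 3 (0.0522), or mutant array 2 (0.069) or 3 (0.0911). Both sets are of the _s_at kind. The sets of DDI3, SNO3 and SNZ3 may also read other genes, so these changes cannot be assigned to the genes beside COS4.

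Next to COS7, THI13, a thiamine precursor gene with near-identical copies, rose at the fourth gene inward, though its set may read those copies. Its _s_at set read 107.2, 95.1 and 102.3 on the mutant arrays, against 70.6, 77.6 and 74.8 on the wild-type arrays (log2 difference 0.33 ± 0.04, limma adjusted p = 0.00438). The gene directly inward of COS7, the maltose permease gene MPH2, was read by a plain set at 8.3 ± 1.15 in the mutant and 8.4 ± 1.15 in wild type (SD, n = 3 each, limma adjusted p = 0.955).

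None of the 3 measured sets near COS6 or the 3 near COS8 passed. The nearest measured gene to COS6 was the maltose transporter gene MAL11, at 20.5 ± 1.67 in the mutant and 20.7 ± 1.42 in wild type (SD, n = 3 each, limma adjusted p = 0.954). Both genes directly beside COS6, PAU12 and the Y' helicase gene YRF1-3, had no annotated set. Directly inward of COS8, ARN2, a siderophore transporter gene, read 66.0 ± 2.90 in the mutant and 72.4 ± 0.83 in wild type (SD, n = 3 each, limma adjusted p = 0.108).

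The other 3 calls lay beside COS genes whose strains overlapped. They are PAU24 beside COS2, and SRY1, hydroxyaspartate dehydratase (log2 difference 0.24 ± 0.03, limma adjusted p = 0.00587) and the ferric reductase gene FRE2 (-0.14 ± 0.04, limma adjusted p = 0.0349) on either side of COS9. SRY1 and FRE2 were named after their values were seen, and FRE2 lost its call without any 1 of the 6 arrays (adjusted p up to 0.124, mutant array 3 out).

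**Figure D4:**
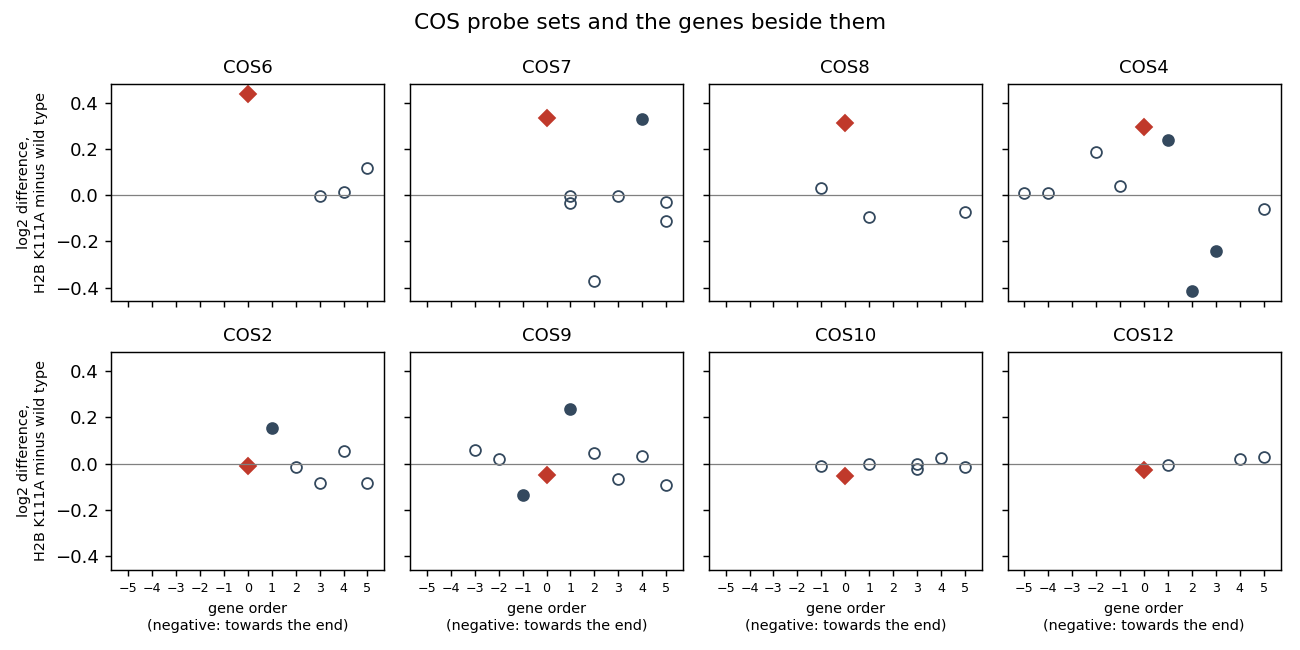
Log2 difference, mutant minus wild type, of the 8 family COS genes (red diamonds at 0) and of the measured genes beside them, placed by gene order with negative numbers towards the chromosome end. Filled circles passed limma's test over all sets and open ones did not. A place without a circle holds a gene with no annotated probe set or lies past the last protein-coding gene of that chromosome end. Beside COS4 the _s_at sets of DDI3 (higher) and of SNO3 and SNZ3 (lower) may also read other genes. No measured neighbour of COS6 or COS8 passed.

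The DUP240 genes are the nearest relatives of the COS family in sequence, and code for small membrane proteins. Of 10 genes 5 had a set, 6 sets in all, of which 1 rose and 2 fell, with a median log2 difference of 0.0035. That is 50% of the 6 sets against 14.6% over all sets, and the number that fell was 1 whichever array was left out. This list and those below were chosen with earlier results of these data known, so no excess can be read from their shares. UIP3 rose, at 284.3, 275.8 and 291.5 on the mutant arrays against 263.9, 235.8 and 248 on the wild-type arrays (log2 difference 0.17 ± 0.04, limma adjusted p = 0.0363). MST28, whose product acts in vesicle formation with that of MST27, was lower on its _s_at set at 43.0 ± 4.04 in the mutant and 62.7 ± 2.36 in wild type (SD, n = 3 each, limma adjusted p = 0.00438). Its plain set disagreed, with 26.2 ± 4.81 in the mutant and 25.0 ± 5.78 in wild type (SD, n = 3 each, limma adjusted p = 0.823).

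MST27 fell by 0.14 ± 0.04 on the log2 scale (limma adjusted p = 0.0446). Its call was lost without any 1 of the 6 arrays (adjusted p up to 0.131, mutant array 1 out), and that of UIP3 without any array but wild-type array 1 (adjusted p up to 0.124, mutant array 3 out).

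Other families with members near chromosome ends gave calls in both directions. Their lists were set by family and hold genes away from the ends too, such as PAU23 (YLR037C) and TIR1 (YER011W). Of 22 sets for 19 seripauperin and related cell wall genes (PAU, DAN and TIR) 2 rose and 1 fell, 13.6% together against 14.6% over all sets, with a median log2 difference of -0.01. PAU5 and PAU24 rose, by 0.22 ± 0.04 and 0.15 ± 0.03 (limma adjusted p = 0.0156 and 0.0238), both on _x_at sets. PAU23 fell by 0.19 ± 0.04 (0.0202) on its plain set. Its _x_at set disagreed, with a log2 difference of 0.03 ± 0.03 (limma adjusted p = 0.534). The plain set of PAU5 was higher by 0.13 ± 0.04 but missed the threshold (limma adjusted p = 0.0659). For PAU5, PAU24 and PAU23, in that order, the adjusted p was 0.0549, 0.0694 and 0.059 with mutant array 1 left out and 0.063, 0.0916 and 0.063 with mutant array 3 left out, so all 3 calls ended; that of PAU23 ended also without mutant array 2 (0.0622) and that of PAU24 without wild-type array 2 (0.0583). Of 8 sets for 5 aryl-alcohol dehydrogenase genes (AAD) AAD10 rose by 0.16 ± 0.03 (limma adjusted p = 0.0182) and AAD6 fell by 0.34 ± 0.05 (0.0052), 25% of the sets against the same 14.6%, with a list median of -0.04. The AAD10 call was lost without mutant array 1 (0.0573) or 3 (0.0736).

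A list of factors of silencing and telomeres was measured on 24 sets. Of these 1 rose and 2 fell, 12.5% together and near the 14.6% over all sets, with a median log2 difference of -0.03. Whether each of these factors acts at the COS genes was not measured. SIR2 read 166.2, 157.7 and 168.8 on the mutant arrays, against 136.5, 149.6 and 151.9 on the wild-type arrays. The strains did not overlap, but the difference of 0.14 ± 0.04 missed the threshold (limma adjusted p = 0.0622). TBF1, which binds telomeric and subtelomeric repeats, read 62.4, 70.6 and 67.2 on the mutant arrays, against 103.6, 104 and 110.8 on the wild-type arrays (log2 difference -0.48 ± 0.04, limma adjusted p = 0.000743).

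SET1, the histone H3 lysine methyltransferase, rose by 0.27 ± 0.05 (limma adjusted p = 0.0175), a call lost without mutant array 2 (0.0529) or 3 (0.0729). YKU70, a telomere-bound DNA end-binding protein, fell by 0.14 ± 0.04 (limma adjusted p = 0.0335), a call lost without any 1 of the 6 arrays (up to 0.109, mutant array 2 out). The part of these factors in the COS values was not tested.

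Genes of NAD synthesis and salvage were mostly lower where they passed: of 16 sets 7 fell and 1 rose, against 7.57% lower and 7.04% higher over all sets, with a median log2 difference of -0.07. The list was chosen with earlier results of these data known, so no excess can be read from these counts. Without 1 array the number that fell was 5 or 6. The largest falls were of BNA5 (-0.67 ± 0.05, limma adjusted p = 0.000282), NRT1 (-0.52 ± 0.04, 0.000335), BNA2 (-0.51 ± 0.07, 0.00438) and URH1, nucleoside hydrolase (-0.30 ± 0.04, 0.00352). The 1 that rose, PNP1, purine nucleoside phosphorylase, named after its value was seen (0.14 ± 0.03, 0.0331), lost its call without any array but mutant array 2 (up to 0.115, mutant array 3 out). The part of these genes in the COS values was not tested.

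The sorting machinery that Cos proteins serve was read by 23 sets. Of these, for subunits of the ESCRT complexes and for ubiquitin ligases and adaptors of the pathway, 1 fell and none rose, 4.35% against 14.6% over all sets, with a median log2 difference of 0.01. MVB12, an ESCRT-I subunit, read 74.7, 75.8 and 83.4 on the mutant arrays, against 107.6, 110.6 and 110.5 on the wild-type arrays (log2 difference -0.37 ± 0.04, limma adjusted p = 0.00208). RSP5, the ubiquitin ligase of the pathway, chosen after its values were seen, read 347 ± 3.93 in the mutant and 362 ± 7.48 in wild type (SD, n = 3 each, limma adjusted p = 0.277).

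**Figure D5:**
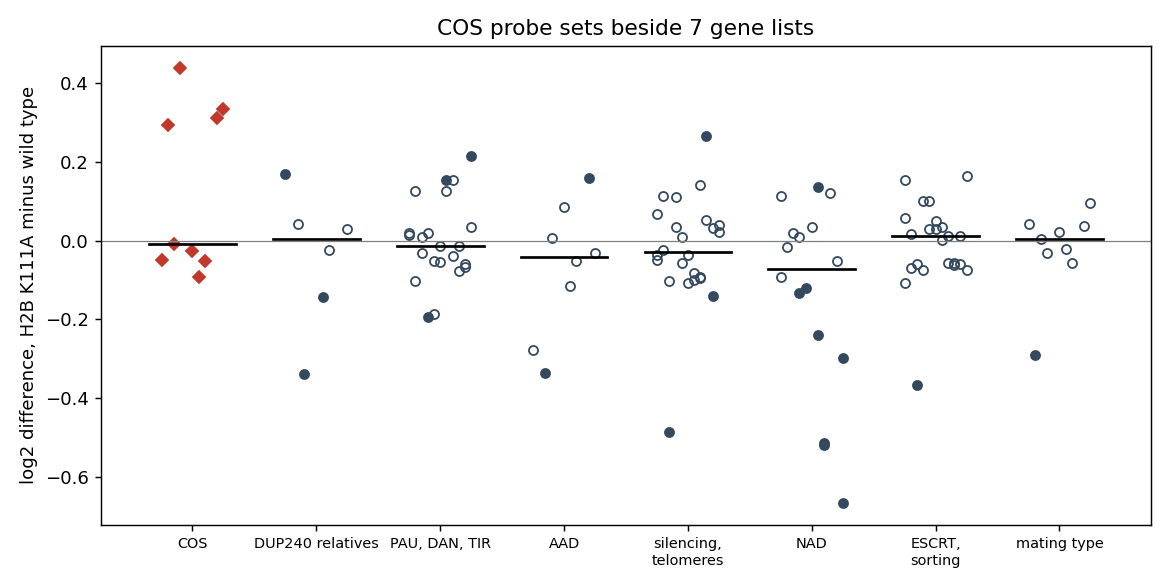
Log2 difference, mutant minus wild type, of the 9 COS probe sets (red diamonds, not tested) and of the probe sets in 7 gene lists (circles, filled where limma's test over all sets was passed); black lines are medians. The COS sets split into 4 at 0.29 to 0.44 and 5 near 0, and in the NAD list 7 filled points lie below 0 and 1 above.

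Mating-type markers read as in a cells, the mating type that responds to alpha factor, in both strains. The a-cell receptor gene STE2 read 852 ± 8.96 in the mutant and 871 ± 18.7 in wild type, and the alpha-factor gene MF(ALPHA)1 read 3.97 ± 1.11 in the mutant and 3.07 ± 1.36 in wild type, near background (SD, n = 3 each). Of 9 such sets only STE3, the receptor of alpha cells, passed, at 11.7 ± 1.47 in the mutant and 21.4 ± 0.46 in wild type (SD, n = 3 each, limma adjusted p = 0.00398). Arrays of 1 strain correlated at 0.996 to 0.998 over sets above background, and mean intensities of the 6 arrays lay between 146.4 and 148.2.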

How the data were processed

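The deposited table holds linear intensity values of 10928 probe sets on 6 arrays. The arrays share a scale set by the authors: after the lowest and highest 2% of values are dropped, every array averages 125.0 to 125.1. Which software did this is not given in the sources used here. By platform annotation, the table pairs 7244 sets with 1 gene symbol, 1 with several and leaves 3683 unnamed. Through gene identifiers 5498 sets matched 5449 genes of the RefSeq R64 table, used for names and gene order only, and 1746 belong to another organism. No genome build is named for the table, so no coordinates are given, and no sequences were available to print.

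Values were transformed to log2(intensity + 32) and fitted over all 5498 sets in R 4.3.3 by limma 3.58.1 (lmFit, eBayes; 8.84 degrees of freedom); tests were two-sided at a Benjamini-Hochberg adjusted p of 0.05. The number of arrays limits the precision. On 20 simulated data sets, noise was drawn as independent and normal, and 200 of the 5498 sets were changed. There the fit recovered 31.6% of log2 changes of 0.15, 82.8% of 0.3 and 99% of 0.6, with 3.69% of calls false. The fit of the real arrays called 803 sets, so these shares need not hold for it. Errors of COS differences are standard errors over arrays, and those of tested sets are limma's.

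Named are every COS set, up to 4 passing members of each list and of the neighbours by size, SIR2, TBF1, and the 3 sets most like each COS set above background. Members and lists were chosen with earlier results of these data known. Alternatives covered pseudocount, quantile normalization, a background filter, 1 set per gene, the replicate block, the variance prior and each array left out. Figures were drawn with matplotlib 3.10.9.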

Additional observations from a re-analysis of the deposited data

How the results depend on the processing

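Of 116 COS log2 differences recomputed under 13 alternatives, 115 moved by less than the SD between arrays. The exception was COS12, at -0.33 with a pseudocount of 1, from readings under background, and it has no value with the background filter. The background filter, 1 set per gene, the replicate block and the variance prior cannot change a COS difference, so part of the 115 were the same by construction. COS4, COS6, COS7 and COS8 were above 0 under all 13, which arrays without overlap fix in advance for every alternative but quantile normalization. The number of sets called was less stable: 236 higher and 257 lower with a pseudocount of 1, 171 and 177 with the replicate block, and from 90 to 270 higher and from 125 to 297 lower without 1 array. Of 24 passing sets named outside the COS family, 12 lost their call under some alternative and none reversed. Same-numbered arrays of the strains did not vary together (correlations of deviations -0.24, -0.05 and -0.17), so the numbers were not taken to pair the samples, and the block leaves the COS differences as they are. Leaving out 1 array leaves its strain with 2, and the spread is pooled over both strains. COS12, and 13 of the 50 neighbouring sets, were not above background on all arrays, where a change could not be read.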
